A study of Mus musculus with 18 samples.

Results

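Transcript levels of 10 genes of the Notch pathway were examined in 10T1/2 cells, a multipotent mouse fibroblast line also known as C3H10T1/2. The genes were the receptors *Notch1*, *Notch2*, *Notch3* and *Notch4*, the ligands *Jag1*, *Jag2* and *Dll1*, and the target genes *Hes1*, *Hey1* and *Heyl*. They were taken by symbol from the 54532 genes of the count table, and all 10 were found. Gene positions are those of the table, on GRCm38, and cover the whole gene with its exons, introns and UTRs. After the filter on low counts 9 of them were among the 14317 genes tested, and *Jag2* was not.

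The 6 groups of 3 libraries came from parental WT cells and from FOXS1 KO clone 1 and clone 2, each sampled uninduced (labelled control) and TGF-β1 + DMII stimulated. Stimulated cultures received TGF-β1 at 1 nM during 12 h, and in the following 48 h the adipogenic mix DMII (insulin, indomethacin, dexamethasone and 3-isobutyl-1-methylxanthine). The clones were grown from single cells after CRISPR-Cas9 editing of the *Foxs1* exon with a pair of guide RNAs and puromycin selection, steps that the parental cells are not described as having undergone, so that editing, selection and clonal origin cannot be told apart. TGF-β1 and DMII were given to the same cultures, and their parts in a response cannot be told apart either. The labels do not say whether the 3 libraries of a group came from separate cultures, and p-values measure only the spread between these libraries, which may be technical.

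Total counts ranged from 15576685 to 42005596 per library, with a median of 20178954. *Foxs1*, the edited gene, was higher in the libraries labelled FOXS1 KO than in WT libraries. Its mean was 2.23 CPM (counts relative to the library total, with TMM scaling) in uninduced WT cells, 25.8 in clone 1 and 22.6 in clone 2, and 2.51, 54.5 and 39.9 CPM after stimulation. The authors report a disrupted *Foxs1* locus by sequencing of genomic DNA, and loss of FOXS1 protein in both clones by western blot. A gene count does not separate edited from unedited transcripts, and each direction given between genotypes below rests on the labels. The 6 fibroblast markers summed to between 29400 and 77500 CPM per library, and the 4 macrophage markers to at most 1.68 CPM. The fibroblast sum was mostly *Col1a1*, *Col1a2* and *Col3a1*, and the other 3 markers differed between genotypes. In uninduced WT, clone 1 and clone 2, *Thy1* had means of 59.7, 184 and 0.616 CPM. In the same order *Pdgfra* had 517, 171 and 216 CPM, and *Pdgfrb* 517, 568 and 700 CPM.

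Notch receptors are single-pass membrane proteins that are activated by ligands of the Jagged and Delta-like families on a neighbouring cell. Ligand binding exposes the receptor to an ADAM protease and then to gamma-secretase, and the released intracellular domain joins RBPJ and Mastermind-like coactivators on DNA and switches on target genes. The hairy-related repressors of the Hes and Hey families are the best known of these targets. In mesenchymal cells the pathway is known for its part in fate choice, and *Notch3* and *Jag1* are known for roles in vascular smooth muscle and pericytes.

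The sequences just upstream of the transcription start are shown for the receptors *Notch1*, *Notch2* and *Notch3* and the ligand *Jag1*, the abundant members for which an entry was matched. Stimulation moved *Notch1* in the opposite direction to the other 3. They are RefSeq sequences of GRCm38.p6, written 5′ to 3′ on the strand of the gene. Entries were matched for 7 of the 10 genes, not for *Hes1*, *Hey1* and *Heyl*. Starts are those of RefSeq, so the *Notch1* window lies within the gene span given below. The *Notch2* window overlaps the first bases of its span. *Notch3* (chr17:32166891-32167140, minus strand), *Notch2* (chr3:98013288-98013537, plus strand) and *Notch1* (chr2:26503823-26504072, minus strand) are shown over 250 bases, and *Jag1* (chr2:137116645-137116770, minus strand) over the 126 bases that lie outside its annotated UTR. Capitals mark CAGAC, the core of a SMAD box, and TGACG, the core of a cAMP response element, on either strand (GTCTG and CGTCA on the other).
Notch3: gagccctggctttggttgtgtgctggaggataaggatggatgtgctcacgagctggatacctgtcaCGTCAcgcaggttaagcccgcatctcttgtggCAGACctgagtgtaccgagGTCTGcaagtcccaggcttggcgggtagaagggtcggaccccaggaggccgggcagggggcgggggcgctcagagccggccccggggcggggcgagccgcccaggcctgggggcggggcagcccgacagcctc
Jag1: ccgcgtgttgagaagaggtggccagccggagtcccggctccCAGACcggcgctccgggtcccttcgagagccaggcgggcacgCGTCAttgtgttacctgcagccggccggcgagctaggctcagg
Notch2: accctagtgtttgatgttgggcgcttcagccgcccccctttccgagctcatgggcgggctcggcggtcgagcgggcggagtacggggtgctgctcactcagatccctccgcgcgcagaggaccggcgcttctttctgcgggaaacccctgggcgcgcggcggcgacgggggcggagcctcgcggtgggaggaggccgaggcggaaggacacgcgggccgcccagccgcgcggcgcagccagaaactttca
Notch1: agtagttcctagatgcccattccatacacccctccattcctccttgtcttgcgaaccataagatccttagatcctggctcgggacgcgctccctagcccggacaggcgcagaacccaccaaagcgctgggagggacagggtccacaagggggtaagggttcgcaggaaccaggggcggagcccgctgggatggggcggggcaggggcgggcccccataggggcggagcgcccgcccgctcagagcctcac
The *Notch3* sequence held 2 SMAD boxes and 1 cAMP response core, and the *Jag1* sequence 1 of each. The *Notch1* and *Notch2* sequences held neither, but 5 GC boxes (GGGCGG on either strand) each, against 4 in *Notch3*. Of 32851 mouse promoter windows of the same length, 42.2% held CAGAC, 17.8% TGACG and 32.7% GGGCGG. The RBPJ core TGGGAA, present in 21.6% of windows, and the forkhead core TGTTTAC, present in 3.17%, were not found in any window of the 7 genes. A match describes letters in a window and is not a binding site.

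Levels of different genes were compared as CPM per kb of gene length. In uninduced WT cells the order was *Hes1* (16.4 ± 1.58 CPM per kb, SD, n = 3), *Notch1* (11.8 ± 0.828), *Notch2* (7.96 ± 0.629), *Jag1* (4.15 ± 0.617) and *Notch3* (1.78 ± 0.212), with no overlap between neighbours. *Hey1*, *Heyl*, *Dll1*, *Notch4* and *Jag2* followed at 0.46 CPM per kb or less, and each overlapped the next. Stimulated WT cells had *Hes1* first (51.2 ± 3.43), then *Notch2* (24.2 ± 0.481), *Notch3* (14.4 ± 0.217), *Jag1* (11.1 ± 0.565) and *Notch1* (6.68 ± 0.467). *Notch1* thus went from the second to the fifth place. The 2 leading genes overlapped in uninduced clone 1 (*Hes1* 20.4 ± 1.09, *Notch1* 19.6 ± 0.619) and in stimulated clone 2 (*Notch2* 34.8 ± 1.52, *Hes1* 33.3 ± 1.01). In uninduced clone 2 *Notch1* led at 16.4 ± 0.729 CPM per kb and *Hes1* was the third at 8.53 ± 0.397. After stimulation of clone 1, *Hes1* (37.6 ± 4.42), *Notch2* (27.2 ± 3.21) and *Jag1* (17.9 ± 1.69) stood apart, while *Notch3* (15.6 ± 0.316) and *Notch1* (14.9 ± 1.16) overlapped.

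**Figure D1:**
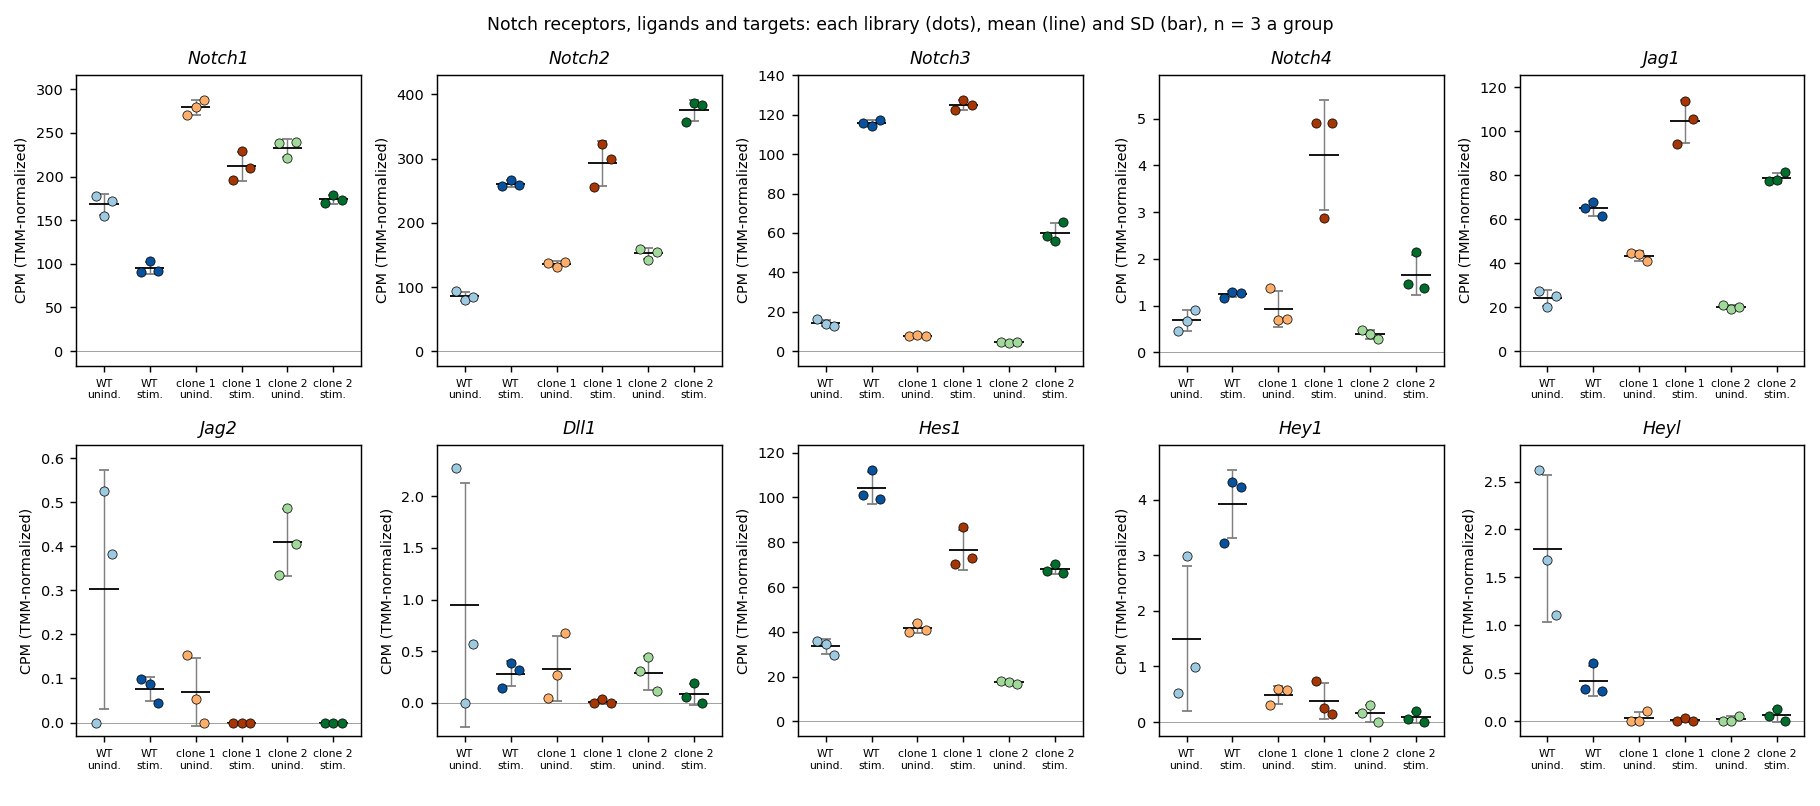
Level of each of the 10 genes in CPM (TMM-normalized, y axis including 0) in each library (dots), by group (x axis), with the group mean (line) and SD (bar), n = 3 libraries. *Notch2*, *Notch3* and *Jag1* sit higher in every stimulated library than in every uninduced library of the same genotype, *Notch1* sits lower, and *Heyl* is at or near 0 in the libraries of both clones.

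TGF-β1 + DMII stimulation raised *Notch2*, *Notch3* and *Jag1* in all 3 genotypes, and *Notch1* fell in all 3. Differentially expressed genes (DEGs) were those past a fold of 2 in either direction (a log2 fold change of 1) whose p after Benjamini-Hochberg adjustment was under 0.05, in an edgeR quasi-likelihood fit of all 18 libraries. In WT cells 5 genes were higher and 1 lower, of 9 tested, against 19.9% of all genes tested that were DEGs (6.25% higher, 13.6% lower). In clone 1 there were 4 higher and 1 lower (all genes 16.7%, with 5.95% higher and 10.7% lower), and in clone 2 there were 5 higher and 0 lower (all genes 17.7%, with 6.46% higher and 11.2% lower). The gene lower was *Heyl* in WT and *Dll1* in clone 1, and neither call is independent of the filter on low counts, as given below. At the adjusted p alone, 7, 7 and 6 of the 9 passed in WT, clone 1 and clone 2, against 60.7%, 54.5% and 55.8% of all genes. The median log2 fold change of the 9 was 1.39 in WT, 0.887 in clone 1 and 1.88 in clone 2, where the medians over all genes were -0.036, -0.023 and -0.02. Below, "rose" and "fell" are used for an adjusted p under 0.05, and DEG where the fold threshold was passed too. These are levels in bulk RNA, in which fewer cells of a type and less RNA per cell cannot be told apart.

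*Notch3* (ENSMUSG00000038146, chr17:32120820-32166880, minus strand), a receptor of mural and mesenchymal cells, had the largest response of the abundant genes. It was at 16.2, 13.7 and 12.9 CPM in the 3 uninduced WT libraries and at 116, 114 and 118 CPM in the stimulated ones. Clone 1 had 7.53, 8.26 and 7.77 CPM uninduced and 123, 128 and 125 CPM stimulated, and clone 2 had 4.51, 4.16 and 4.75 CPM uninduced and 58.7, 56.1 and 65.7 CPM stimulated. Within each genotype every stimulated library lay above every uninduced one. The log2 fold change was 3.03 ± 0.0768 (SE) in WT (edgeR, adjusted p = 5.23e-24), 3.99 ± 0.0834 in clone 1 (adjusted p = 5.88e-26) and 3.75 ± 0.0885 in clone 2 (adjusted p = 9.11e-25), or 8.17-, 15.9- and 13.5-fold. Its response exceeded that of WT by 0.96 ± 0.114 in clone 1 (adjusted p = 6.33e-08) and by 0.72 ± 0.119 in clone 2 (adjusted p = 1.68e-05). Neither difference passed the fold threshold, which that of clone 1 crossed without WT uninduced replicate 3 (1.03).

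The starting level of *Notch3* differed between genotypes more than its final level did in clone 1. Uninduced libraries labelled clone 1 were lower than WT by 0.85 on the log2 scale (adjusted p = 6.2e-09, not a DEG), and those labelled clone 2 had a log2 fold change of -1.67 ± 0.0973 (adjusted p = 5.76e-15, DEG), 3.17-fold lower. After stimulation clone 1 was at 0.11 ± 0.065 relative to WT (adjusted p = 0.146), and clone 2 at -0.95 ± 0.0678 (adjusted p = 4.93e-13), which passed the fold threshold without clone 2 stimulated replicate 3 (-1.01). The 3 genotypes did not overlap within either treatment. Clone 1 exceeded clone 2 by 1.06 ± 0.0677 in stimulated cells (adjusted p = 1e-13, DEG).

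The summed mural or smooth muscle markers were higher after stimulation in WT cells. The sum of the 7 markers (*Acta2*, *Tagln*, *Cnn1*, *Myh11*, *Des*, *Cspg4*, *Rgs5*) was 454 to 480 CPM in uninduced WT libraries and 2080 to 2250 CPM in stimulated ones, mostly *Acta2*, smooth muscle actin. In clone 1 it was 566 to 594 CPM uninduced and 396 to 413 CPM stimulated, and in clone 2 it was 434 to 475 and 443 to 490 CPM. Single markers moved differently from the sum. *Rgs5*, a pericyte marker, was a DEG higher after stimulation in all 3 genotypes, as *Notch3* was, with mean levels of 0.762 and then 13.6 CPM in WT, 0.0685 and 1.78 CPM in clone 1, and 0.123 and 0.801 CPM in clone 2. *Acta2* went from a mean of 274 to 2036 CPM in WT, from 419 to 308 CPM in clone 1 and from 193 to 323 CPM in clone 2, and *Cspg4* fell in all 3. *Des* was a DEG lower in all 3, and *Tagln* was a DEG higher in clone 2 (6 and then 24 counts). *Tagln* had only 146 counts over all 18 libraries, with 34 and then 53 in WT, too few to judge its response. By RT-qPCR the authors report a *Tagln* rise with stimulation that was blunted in both clones. The part of mural transcripts in the *Notch3* values was not tested.

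*Notch2* (ENSMUSG00000027878, chr3:98013527-98150361, plus strand), a widely expressed receptor, rose in every genotype as a DEG. It was at 93.4, 80.2 and 83.9 CPM in uninduced WT libraries and 258, 267 and 258 CPM in stimulated ones, a log2 fold change of 1.61 ± 0.0686 (adjusted p = 4.28e-17). In clone 1 it went from 137, 131 and 140 CPM to 255, 323 and 300 CPM (1.11 ± 0.0669, adjusted p = 9.2e-14), and in clone 2 from 160, 143 and 155 CPM to 357, 387 and 383 CPM (1.30 ± 0.0666, adjusted p = 2.45e-15). Treatments did not overlap in any genotype. The rise was smaller than in WT by 0.50 ± 0.0946 in clone 1 (adjusted p = 0.000153) and by 0.31 ± 0.0942 in clone 2 (adjusted p = 0.0135). Uninduced clones were higher than WT by 0.66 ± 0.0687 and 0.83 ± 0.0682 (clone 1 and clone 2, adjusted p = 5.52e-09 and 6.57e-11), and stimulated clones by 0.17 ± 0.0652 and 0.52 ± 0.0654 (adjusted p = 0.0306 and 1.25e-07), none of them DEGs. The lowest stimulated clone 1 library lay below all 3 WT libraries.

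*Notch1* (ENSMUSG00000026923, chr2:26457903-26516663, minus strand), the receptor with the highest level per length in uninduced cells of all genotypes, fell with stimulation by less than the fold threshold. WT libraries were at 178, 155 and 172 CPM uninduced and 90.6, 103 and 91.8 CPM stimulated (-0.82 ± 0.0602, adjusted p = 6.35e-13). Clone 1 libraries were at 270.2, 280 and 288 CPM and then 197, 229 and 210 CPM (-0.40 ± 0.0582, adjusted p = 9.26e-07), and clone 2 libraries at 238, 221 and 239 CPM and then 169, 179 and 173 CPM (-0.42 ± 0.0589, adjusted p = 4.02e-07). All libraries labelled FOXS1 KO lay above all WT libraries of the same treatment. The excess over WT was 0.73 ± 0.0588 in uninduced clone 1 and 0.47 ± 0.0586 in uninduced clone 2, and 1.16 ± 0.0601 (DEG, adjusted p = 2.13e-16) and 0.87 ± 0.0605 (adjusted p = 2.42e-13) after stimulation. The fall was smaller than in WT by 0.43 ± 0.0836 in clone 1 (adjusted p = 0.000169) and 0.40 ± 0.084 in clone 2 (adjusted p = 0.000353). In the GENCODE M21 annotation of GRCm38, 9.76% of the exonic bases of *Notch1* overlap other genes, 0610009E02Rik and Gm13568 on the opposite strand, and without a stated strand setting their reads cannot be told apart. The first of them had 23 to 52 counts per group.

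*Notch4* (ENSMUSG00000015468, chr17:34564268-34588503, plus strand), known from endothelium, was at the bottom of the receptor range. It had 8, 13 and 24 counts in the 3 uninduced WT libraries and 24, 30 and 28 in the stimulated ones, and its WT response of 0.82 ± 0.394 did not pass (adjusted p = 0.0737). Without WT uninduced replicate 3 it did (1.11, adjusted p = 0.0389). In clone 1 the counts were 27, 13 and 14 uninduced and 92, 78 and 108 stimulated (2.16 ± 0.364, adjusted p = 8.67e-06, DEG), and in clone 2 they were 21, 9 and 5 and then 26, 33 and 23 (2.03 ± 0.41, adjusted p = 0.000102, DEG). The clones' responses were not shown to differ from WT (difference 1.34 ± 0.54, adjusted p = 0.0579, and 1.21 ± 0.571, adjusted p = 0.111). The first of these passed without WT uninduced replicate 1 (1.54, adjusted p = 0.0237), clone 1 uninduced replicate 1 (1.74, adjusted p = 0.0226) or clone 1 stimulated replicate 2 (1.56, adjusted p = 0.0371). Stimulated clone 1 had a mean of 4.23 CPM against 1.24 in WT (1.75 ± 0.349, adjusted p = 7.75e-05, DEG). The 6 endothelial markers summed to 0.0455 to 0.59 CPM in stimulated clone 1, where *Emcn* had 10 counts over the 3 libraries, *Pecam1* 5, *Tek* 2, *Cdh5* 1, and *Kdr* and *Tie1* 0. Their part in the *Notch4* values was not tested.

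Per length, the receptor mix shifted from *Notch1* to *Notch2* and *Notch3* with stimulation. Of the summed receptor level of uninduced WT cells, *Notch1* made up 54.6% ± 1.16 (SD, n = 3), *Notch2* 36.8% ± 0.624, *Notch3* 8.2% ± 0.66 and *Notch4* 0.398% ± 0.14. In stimulated WT cells the shares were 14.7% ± 0.77, 53.3% ± 0.211, 31.7% ± 0.933 and 0.34% ± 0.0126. The share of *Notch1* went from 58.9% ± 0.927 to 25.6% ± 0.452 in clone 1 and from 52.6% ± 0.507 to 22.3% ± 0.554 in clone 2. *Notch3* went from 2.93% ± 0.162 to 26.8% ± 1.59 in clone 1 and from 1.79% ± 0.0629 to 13.7% ± 1.05 in clone 2. Summed receptor level was 21.6 ± 1.55 CPM per kb in uninduced and 45.4 ± 0.799 in stimulated WT cells, 33.3 ± 0.791 and 58.1 ± 4.53 in clone 1, and 31.1 ± 1.56 and 54.7 ± 1.96 in clone 2. These shares and sums are descriptions of RNA levels and were not tested.

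**Figure D2:**
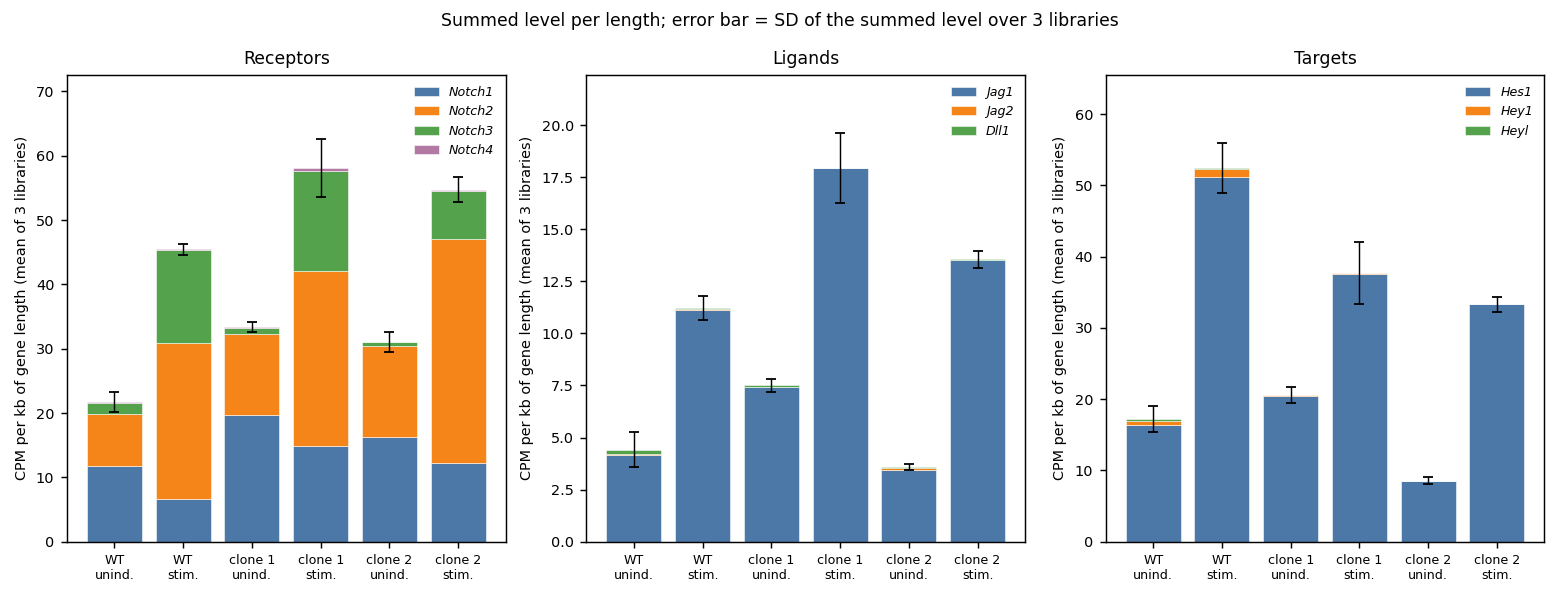
Stacked mean levels in CPM per kb of gene length (y axis from 0) of the receptors, ligands and targets in each group (x axis), with the SD of the summed level over 3 libraries (bar). *Notch1* shrinks and *Notch2* and *Notch3* grow in every stimulated group, and *Jag1* and *Hes1* make up nearly the whole of the ligand and target bars.

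*Jag1* (ENSMUSG00000027276, chr2:137081456-137116644, minus strand), of the ligands *Jag1*, *Jag2* and *Dll1* the only one well above the detection floor, rose in every genotype as a DEG. WT libraries had 27.2, 20.2 and 25.1 CPM uninduced and 65.2, 68.1 and 61.5 CPM stimulated (1.43 ± 0.0842, adjusted p = 4.41e-15). Clone 1 libraries had 44.8, 44.2 and 40.8 CPM and then 94.2, 114 and 106 CPM (1.27 ± 0.0798, adjusted p = 2.1e-14), and clone 2 libraries 21.1, 19.3 and 20.1 CPM and then 77.3, 77.7 and 81.5 CPM (1.96 ± 0.0847, adjusted p = 2.39e-18). The treatments did not overlap. The rise in clone 2 exceeded that in WT by 0.54 ± 0.119 (adjusted p = 0.000693), and that in clone 1 was at -0.15 ± 0.115 relative to WT (adjusted p = 0.35). The clones differed from each other in uninduced cells, where clone 1 exceeded clone 2 by 1.10 ± 0.0858 (adjusted p = 1.01e-11, DEG) and WT by 0.84 ± 0.086 (adjusted p = 1.42e-09), while clone 2 was at -0.26 ± 0.0889 relative to WT (adjusted p = 0.0165) with overlapping libraries. *Jag1* made up at least 94.4% of the summed level of *Jag1*, *Jag2* and *Dll1* per length in every group mean.

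*Jag2* and *Dll1* were close to the detection floor, and their libraries disagreed within groups. *Jag2* (ENSMUSG00000002799, chr12:112907819-112929776, minus strand) had 0, 10 and 10 counts in the uninduced WT libraries, 2, 2 and 1 in the stimulated ones, and 3, 1 and 0 in uninduced clone 1. It had 15, 11 and 7 counts in uninduced clone 2 and 0 in all 6 stimulated libraries of both clones, where the group floor of 3 counts stands for 0.0442 CPM (clone 1) and 0.0603 CPM (clone 2). Against that floor, the level in stimulated clone 2 was at least 6.47-fold lower than in uninduced clone 2. In a fit without the filter this difference passed (edgeR, adjusted p = 0.0025). The other *Jag2* comparisons did not pass in that fit (adjusted p of 0.0949 or more).

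*Dll1* (ENSMUSG00000014773, chr17:15367354-15376872, minus strand), a Delta-like ligand, had 39, 0 and 15 counts in the uninduced WT libraries and 3, 9 and 7 in the stimulated ones. Counts were 1, 5 and 13 in uninduced clone 1, 0, 1 and 0 in stimulated clone 1, 14, 10 and 2 in uninduced clone 2 and 1, 3 and 0 in stimulated clone 2. It was a DEG in clone 1, lower in stimulated than in uninduced cells (adjusted p = 0.028) and lower than in stimulated WT cells (adjusted p = 0.0352). As 1 count stood against 19 in both cases, these are ratios of 22.4 (95% counting interval 3.57 to 932) and 19.6 (3.12 to 814), and such intervals cover counting error only. *Dll1* passed the filter on low counts only through uninduced libraries, where it was high, so the first call is not independent of the filter. The first call was lost without clone 1 uninduced replicate 3 (adjusted p = 0.173) or clone 1 stimulated replicate 1 or 3 (adjusted p = 0.0705 and 0.0854). The second was lost without WT stimulated replicate 2 or 3 (adjusted p = 0.083 and 0.0617) or any 1 of the clone 1 stimulated replicates (adjusted p of 0.0515 to 0.0995). Leaving out the uninduced WT library with 0 counts, replicate 2, made *Dll1* a DEG lower in uninduced clone 1 (-2.04, adjusted p = 0.0273), in uninduced clone 2 (-2.18, adjusted p = 0.0164) and in stimulated WT cells (-2.25, adjusted p = 0.0133), none of which passed with it. Of the exonic bases of *Dll1*, 20.5% overlap A930024N18Rik on the opposite strand, a gene with 0 to 2 counts per group.

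*Hes1* (ENSMUSG00000022528, chr16:30064384-30067796, plus strand), a repressor of the hairy family and the most abundant target, rose in every genotype. It was at 35.8, 34.8 and 29.8 CPM in uninduced WT libraries and 101, 112 and 99.5 CPM in stimulated ones (1.65 ± 0.0796, adjusted p = 3.72e-17, DEG). In clone 1 it went from 39.8, 44 and 40.8 CPM to 70.1, 86.9 and 73 CPM (0.89 ± 0.0786, adjusted p = 5.87e-11, below the fold threshold), and in clone 2 from 18, 17.7 and 16.5 CPM to 67.3, 70.2 and 66.2 CPM (1.96 ± 0.0844, adjusted p = 2.3e-18, DEG). Treatments did not overlap in any genotype. Relative to WT the rise was smaller in clone 1 (-0.76 ± 0.111, adjusted p = 2.47e-06) and larger in clone 2 (0.31 ± 0.115, adjusted p = 0.0385).

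The clones stood on opposite sides of WT for *Hes1* before stimulation and on the same side after it. In uninduced cells clone 1 was at 0.32 ± 0.0822 (adjusted p = 0.00164) and clone 2 at -0.93 ± 0.0861 (adjusted p = 1.8e-10) relative to WT. The latter passed the fold threshold without WT uninduced replicate 3 (-1.01). Clone 1 exceeded clone 2 by 1.25 ± 0.0853 (adjusted p = 5.23e-13, DEG). After stimulation both were lower than WT, at -0.44 ± 0.075 in clone 1 (adjusted p = 8.9e-06) and -0.62 ± 0.0764 in clone 2 (adjusted p = 4.47e-08), and the clones overlapped (0.18 ± 0.0769, adjusted p = 0.0585).

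*Hey1* (ENSMUSG00000040289, chr3:8663359-8667256, minus strand), a Hairy/E(spl)-related repressor, was lower in the libraries labelled FOXS1 KO than in WT. It had 9, 57 and 26 counts in uninduced WT libraries (0.524, 2.99 and 0.991 CPM) and 66, 100 and 94 in stimulated ones (3.23, 4.32 and 4.24 CPM). Clone 1 had 6, 11 and 11 counts uninduced and 14, 7 and 3 stimulated, and clone 2 had 7, 7 and 0 and then 1, 3 and 0. Stimulated libraries of the clones, at 0 to 0.745 CPM, did not overlap those of WT, whereas uninduced clone 1 did. The log2 fold change to WT was -3.41 ± 0.611 in stimulated clone 1 (adjusted p = 2.35e-05) and -5.51 ± 0.799 in stimulated clone 2 (adjusted p = 1.15e-06), or 10.6- and 45.5-fold lower. The second fold rests on 4 counts over the stimulated clone 2 libraries, close to the floor of 3 counts, and its size is uncertain. In uninduced cells the log2 fold change to WT was -3.14 ± 0.688 in clone 2 (adjusted p = 0.00034) and -1.61 ± 0.618 in clone 1 (adjusted p = 0.0304), all 4 being DEGs. The call in uninduced clone 1 was lost without WT uninduced replicate 2 (-0.67, adjusted p = 0.39), or without clone 1 uninduced replicate 1 (adjusted p = 0.118), 2 (adjusted p = 0.0544) or 3 (adjusted p = 0.057), and in a fit of only these 2 groups (adjusted p = 0.0615).

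Stimulation raised *Hey1* in WT cells (1.39 ± 0.526, adjusted p = 0.0242, DEG). That call was lost with DESeq2 (adjusted p = 0.0544), and without WT uninduced replicate 1 or 3 (adjusted p = 0.0715 and 0.0929) or WT stimulated replicate 2 or 3 (adjusted p = 0.0736 and 0.0683). Clone 1 and clone 2 were at -0.42 ± 0.708 (adjusted p = 0.653) and -0.97 ± 1.11 (adjusted p = 0.483). The differences in response from WT did not pass (-1.81 ± 0.885, adjusted p = 0.126, and -2.36 ± 1.22, adjusted p = 0.152). They passed without WT uninduced replicate 2, at -2.75 (adjusted p = 0.0122) and -3.31 (adjusted p = 0.0232), and that of clone 1 also without clone 1 stimulated replicate 1, at -2.64 (adjusted p = 0.0359).

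*Heyl* (ENSMUSG00000032744, chr4:123233556-123249875, plus strand), the third member of the Hey family, was nearly absent from the libraries of both clones. It had 45, 32 and 29 counts in uninduced WT libraries and 7, 14 and 7 in stimulated ones. Over 3 libraries each, uninduced clone 1 held 2 counts, uninduced clone 2 held 1, stimulated clone 1 held 1 and stimulated clone 2 held 3, and no library of a clone reached the lowest WT library of its treatment. As ratios of counts scaled to depth, uninduced WT exceeded clone 1 by 48.8-fold (95% counting interval 13.2 to 408) and clone 2 by 144-fold (25.2 to 5730). Stimulated WT exceeded clone 1 by 28.9-fold (4.78 to 1180) and clone 2 by 7.06-fold (2.18 to 36.3). All 4 were DEGs (adjusted p = 6.7e-06, 9.08e-07, 0.00106 and 0.0177 in the same order). That of stimulated clone 2 was lost without WT stimulated replicate 2 (adjusted p = 0.0784) or clone 2 stimulated replicate 1 or 3 (adjusted p = 0.0605 and 0.0887). *Heyl* passed the filter on low counts only through WT libraries, which bears on these calls and on that for stimulation below.

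Unlike *Hey1*, *Heyl* fell with stimulation in WT cells, from a mean of 1.8 CPM to 0.421 CPM (-2.06 ± 0.619, adjusted p = 0.00496, DEG). Both treatments of both clones were at or under the floor of 3 counts, and no fold is given for their responses. Of the endothelial markers, *Tek* moved with *Heyl*, while the others had few counts and differed in direction. The 6 summed to 5.09 to 7.92 CPM in uninduced WT libraries, mostly *Tek* (a mean of 5.91 CPM), against at most 1.35 CPM in any other library. *Tek* had 373 counts over the 3 uninduced WT libraries and 17 over the stimulated ones. *Pecam1* had 33 (28, 2 and 3) and then 2 counts, *Emcn* 6 and 9, *Cdh5* 1 and 4, *Kdr* 0 and 1, and *Tie1* 0 in both. The part of endothelial transcripts in the *Heyl* values was not tested.

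Between genotypes, *Hey1* and *Heyl* were DEGs, lower, in all 4 comparisons of a clone with WT. *Heyl* passed the filter on low counts only through WT libraries, where it was high, so its calls are not independent of the filter. In uninduced cells 2 of 9 genes were DEGs in clone 1 (*Hey1*, *Heyl*) and 3 in clone 2 (these and *Notch3*), against 15.1% of all genes tested in each (6.32% higher and 8.73% lower in clone 1, 5.54% and 9.56% in clone 2). After stimulation 5 were DEGs in clone 1 (*Notch1* and *Notch4* higher, *Dll1*, *Hey1* and *Heyl* lower) and 2 in clone 2 (*Hey1*, *Heyl*), against 19% and 16.9% of all genes (9.42% higher and 9.6% lower in clone 1, 7.95% and 8.94% in clone 2). At the adjusted p alone, 7 of 9 passed in each clone uninduced and 8 and 7 stimulated, where all genes gave 53.5%, 53.2%, 58.9% and 56%. The adipocyte markers moved in the comparisons of stimulated cells. Their sum (*Adipoq*, *Plin1*, *Fabp4*, *Cidec*, *Lep*) was 0.293 to 1.22 CPM in stimulated WT libraries, 30.5 to 43 CPM in stimulated clone 1 and 2.71 to 4.64 CPM in stimulated clone 2. In uninduced libraries it was 1.57 to 2.1 CPM in WT, 1.18 to 1.86 CPM in clone 1 and 2.04 to 2.39 CPM in clone 2. In these uninduced cells 1 of the 4 tested was a DEG higher in clone 1 than in WT, and 0 in clone 2. That gene was *Cidec*, with 0, 0 and 16 counts in clone 1 and 0 in WT, so the call rests on 1 library. *Adipoq* and *Plin1* were at 0 counts in the stimulated WT libraries, and *Lep* was at 0 in all 18 libraries. Of the 4 tested, 4 were DEGs higher in stimulated clone 1 than in WT and 2 in stimulated clone 2, and their part in the values of the Notch genes was not tested. *Cidec* and *Plin1* passed the filter on low counts only with the libraries of stimulated clone 1, where they were high. Their calls in that group are therefore not independent of the filter. The clones share their WT libraries, so that the comparisons of a treatment are not independent. In a fit of only the stimulated groups compared, *Heyl* and *Dll1* did not pass the filter on low counts and were not tested.

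**Figure D3:**
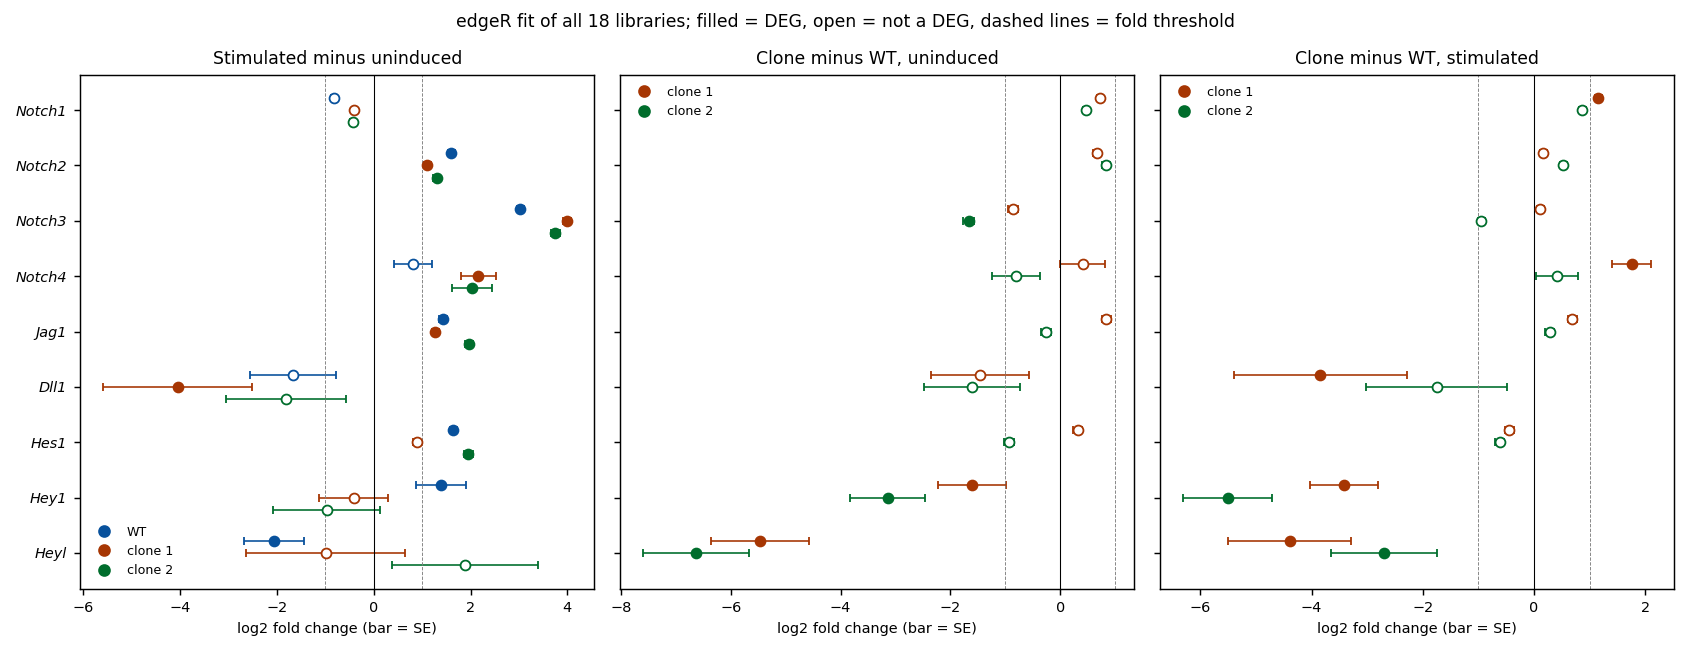
Log2 fold change (x axis, bar = SE) of the 9 genes tested (y axis), for stimulated minus uninduced cells in each genotype and for each clone minus WT in uninduced and in stimulated cells, with DEGs filled and dashed lines at the fold threshold. *Notch2*, *Notch3* and *Jag1* lie to the right of the line in all 3 genotypes, and *Hey1* and *Heyl* lie to the left of it in both clones and both treatments, with wide errors.

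No gene of the 9 was a DEG in the difference in response between a clone and WT, where 8.81% (clone 1) and 7.85% (clone 2) of all genes were. At the adjusted p alone, 4 passed in clone 1 (*Notch1*, *Notch2*, *Notch3*, *Hes1*) and 5 in clone 2 (these and *Jag1*), against 31.6% and 31.2% of all genes. DESeq2 gave 0 DEGs in clone 1 and 1 in clone 2, *Heyl* (adjusted p = 0.0487), which had 1 and 3 counts in the clone 2 groups. The fall of *Notch1* was smaller, the rise of *Notch2* smaller and the rise of *Notch3* larger in both clones than in WT.

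The clones also differed from each other. In uninduced cells *Notch4*, *Jag1* and *Hes1* were DEGs, higher in clone 1 (3 of 9, against 8.67% of all genes, 4.89% higher and 3.78% lower), and in stimulated cells *Notch3* and *Notch4* were (2 of 9, against 9.98%, 5.5% higher and 4.48% lower). At the adjusted p alone 6 and 5 passed, against 42.2% and 45.4% of all genes. *Notch4* in uninduced cells, at 1.21 ± 0.426 (adjusted p = 0.0224), lost its call without clone 1 uninduced replicate 1 (adjusted p = 0.193) or clone 2 uninduced replicate 2 or 3 (adjusted p = 0.0508 and 0.0722). The adipocyte markers also set the stimulated clones apart, 3 of the 4 tested being DEGs higher in clone 1, and their part in these differences was not tested. Of these markers, *Cidec* and *Plin1* passed the filter on low counts only with the libraries of stimulated clone 1, so their calls are not independent of the filter.

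Of 43 further genes of the pathway reported here, in lists by role, 36 were tested. Stimulation made 0 a DEG higher and 7 (19.4%) lower in WT, where 6.25% and 13.6% of all genes were. It made 0 higher and 5 (13.9%) lower in clone 1 (all genes 5.95% and 10.7%), and 1 (2.78%) higher and 8 (22.2%) lower in clone 2 (all genes 6.46% and 11.2%), with median log2 fold changes of -0.241, -0.087 and -0.179. In uninduced cells 5 (13.9%) were DEGs in each clone against WT (all genes 15.1% in each), and in stimulated cells 4 (11.1%) in clone 1 and 5 (13.9%) in clone 2 (all genes 19% and 16.9%), shares near or below those of all genes. Of the 8 receptor proteases (ADAM and gamma-secretase subunits) only *Aph1b*, a gamma-secretase subunit, was a DEG in any comparison. It went from 48.6, 55.4 and 45.7 CPM to 25.6, 23.7 and 24.4 CPM with stimulation of WT cells (-1.02 ± 0.0837, adjusted p = 8.79e-12).

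Among the 3 tested of the other ligands, *Dner*, a transmembrane protein of the Delta/Notch-like family, was lower in the clones. It was at 15.5, 17 and 14.3 CPM in uninduced WT libraries and at 0.174 to 0.892 CPM in those of the clones (-4.47 ± 0.329 in clone 1, adjusted p = 1.27e-12, and -4.61 ± 0.32 in clone 2, adjusted p = 3.16e-13). It fell with stimulation in WT to 1.86, 2.29 and 2.12 CPM (-2.89 ± 0.283, adjusted p = 3.67e-10), with a mean of 0.0123 CPM in clone 1 and 0.194 CPM in clone 2. In stimulated cells both clones were lower than WT as well (adjusted p = 6.57e-10 and 4.3e-07).

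The fringe glycosyltransferases modify Notch receptors and alter their response to ligands. Of 4 tested genes of receptor glycosylation, 2 were DEGs higher in uninduced clone 1 and 0 in uninduced clone 2, against 6.32% and 5.54% of all genes, and 1 in each stimulated clone, against 9.42% and 7.95%. With stimulation 1 fell as a DEG in each clone and 0 in WT, against 10.7%, 11.2% and 13.6% of all genes lower in clone 1, clone 2 and WT. *Lfng* had a mean of 8.69 ± 1.08 CPM (SD, n = 3) in uninduced WT cells, 25.8 ± 2.43 in clone 1 (DEG, 1.57 ± 0.131, adjusted p = 2.1e-11) and 16.3 ± 1.28 in clone 2. It fell with stimulation by 1.63 in clone 1 (adjusted p = 6.51e-12) and by 1.53 in clone 2 (adjusted p = 1.36e-10), both DEGs. *Rfng* was at 21.1, 21 and 20.8 CPM in stimulated WT libraries, 62.7, 67.7 and 63.2 CPM in clone 1 (1.62 ± 0.0909, adjusted p = 1.32e-15) and 48.5, 45.3 and 50.5 CPM in clone 2 (1.20 ± 0.0925, adjusted p = 2.64e-12), both DEGs, and clone 1 was a DEG uninduced too (1.02 ± 0.093).

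Of the 7 tested genes reported here of the nuclear complex and corepressors, only *Maml3* was a DEG in a comparison with WT or with stimulation. Its 1 of 7 (14.3%) compares with 15.1% of all genes for uninduced clone 2 against WT. For the response of clone 2 all genes gave 17.7%, and for its difference from WT 7.85%. *Maml3*, a Mastermind-like coactivator, was a DEG lower in uninduced clone 2 than in WT (-1.07 ± 0.174, adjusted p = 5.42e-06), rose in clone 2 (1.00 ± 0.177, adjusted p = 1.69e-05) and did so more than in WT (1.37 ± 0.244, adjusted p = 4.87e-05).

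Of 12 tested genes of ubiquitylation, trafficking and inhibition, *Dtx3l*, a Deltex-family ubiquitin ligase, was a DEG lower after stimulation in all genotypes. Its mean went from 17.7 ± 2.85 to 3.51 ± 0.0749 CPM in WT (-2.32 ± 0.147, adjusted p = 2.43e-14), from 20.8 ± 3.06 to 3.98 ± 0.499 CPM in clone 1 (-2.38 ± 0.144) and from 14.9 ± 0.625 to 3.45 ± 0.334 CPM in clone 2 (-2.11 ± 0.153). *Dtx4*, of the same family, was at 18.1, 19.3 and 21.5 CPM in stimulated WT libraries and 6.16, 6.67 and 7.1 CPM in clone 2 (-1.56 ± 0.128, adjusted p = 9.72e-12), and it fell with stimulation in clone 2 by 1.06 (adjusted p = 3.25e-08). *Neurl1b*, a ubiquitin ligase of ligands, fell in clone 2 by 1.61 (adjusted p = 0.0476).

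The remaining DEGs of these lists had a mean under 1 CPM over all libraries and are named here after their values were seen. They were *Dlk1* and *Dlk2*, Delta-like proteins outside the set of canonical ligands, *Neurl1a*, a ubiquitin ligase, and *Hey2*, the closest relative of *Hey1* among the targets. *Hey2* had 40, 22 and 61 counts in uninduced WT libraries and 2, 2 and 4 in stimulated ones (-3.93 ± 0.605, adjusted p = 1.79e-06), and 22, 16 and 14 in stimulated clone 1, a DEG above stimulated WT (2.64 ± 0.639, adjusted p = 0.000747). *Dlk1* had 185 counts over the 3 uninduced WT libraries and 56 over the stimulated ones, 26 and 7 in clone 2, and 0 in both treatments of clone 1. *Dlk2* had 26 counts in uninduced WT, 106 in clone 1 and 208 in clone 2, DEGs in both clones (2.15 ± 0.556, adjusted p = 0.00167, and 2.49 ± 0.546, adjusted p = 0.000301), and it was a DEG lower after stimulation in all 3 genotypes. *Neurl1a* also was a DEG lower after stimulation in all 3, with 76 and then 17 counts in WT. It passed the filter on low counts only through uninduced libraries, and *Dlk2* through these and 1 library of stimulated clone 2. The stimulation calls of *Neurl1a* and *Dlk2* are therefore not independent of the filter.

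**Figure D4:**
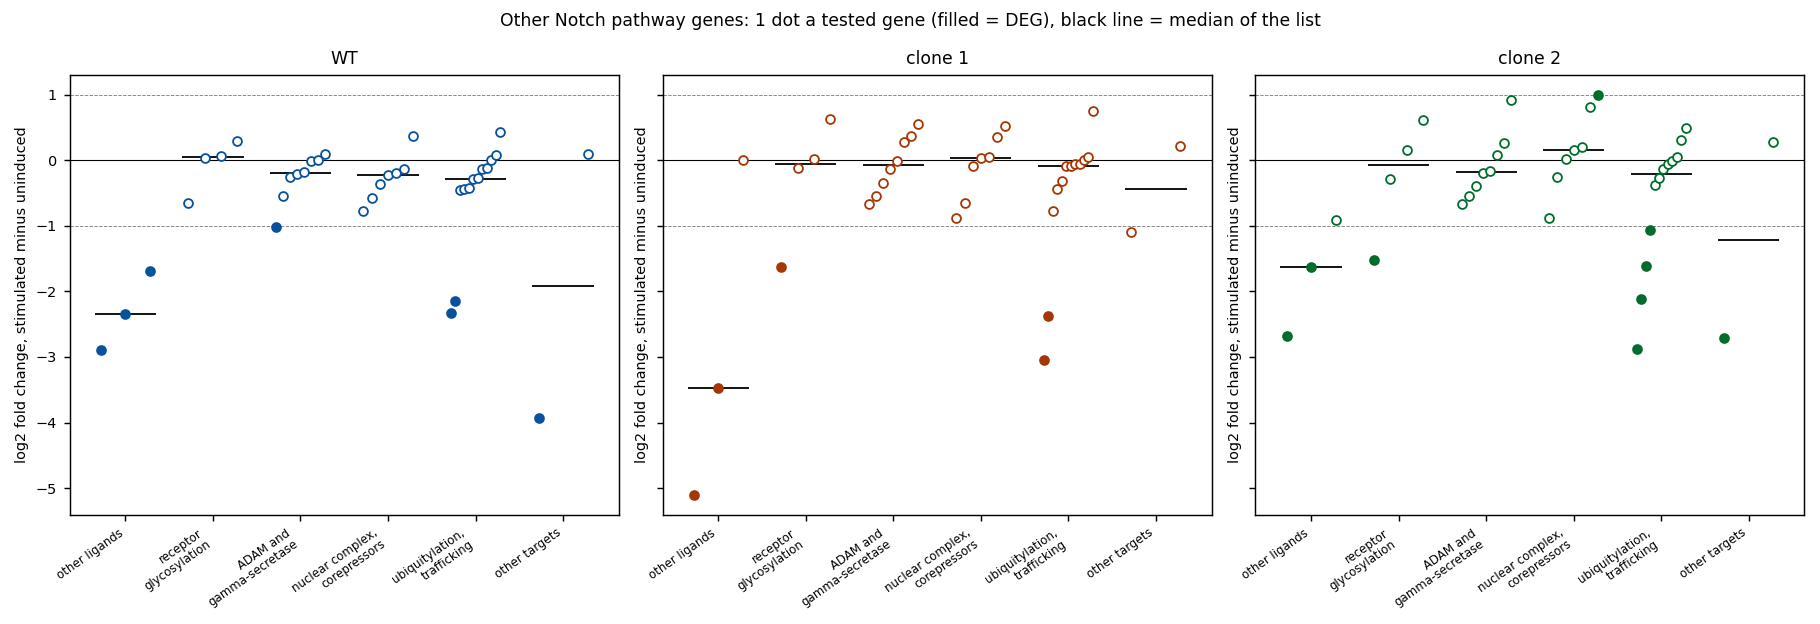
Log2 fold change of stimulated against uninduced cells (y axis) for each tested gene of the 6 further lists of the pathway (x axis), in WT, clone 1 and clone 2, with DEGs filled, list medians as black lines and dashed lines at the fold threshold. Most dots of the proteases and the nuclear complex lie between the dashed lines, and the other ligands lie lowest.

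The genes whose levels followed those of the abundant members most closely were found among 10058 genes by Pearson correlation of log2 CPM over the 18 libraries, which share their treatments and genotypes. *Notch3* was followed most closely by *Rrp1b* (r = 0.992) and *Plod2* (r = 0.986), *Notch1* by *Ep300* (r = 0.986) and *Fam53b* (r = 0.982), and *Notch2* by *Itgb5* (r = 0.987) and *Col1a1* (r = 0.985). *Jag1* was followed by *Acvr1* (r = 0.98) and *Cd44* (r = 0.979), and *Hes1* by *Thbs1* (r = 0.984) and *Fbn1* (r = 0.975). These values describe likeness across 6 groups and were not tested.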

How the data were processed

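Poly(A) RNA of 18 samples of 10T1/2 cells was sequenced by the authors on an Illumina NovaSeq instrument as paired-end reads and mapped to GRCm38 (mm10) with HISAT2. The authors deposited raw counts per gene, without normalization, in a table that also lists gene positions and lengths. How reads were counted, with which annotation release and strand setting, is not given in the sources used here.

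Counts were filtered with filterByExpr (minimum count 10), scaled with TMM and fitted with edgeR 4.0.16 (glmQLFit, robust, 1 mean per group over 18 libraries) in R 4.3.3, with limma 3.58.1. Contrasts were tested with glmQLFTest, a standard error (SE) is the log2 fold change divided by the square root of F, and p-values were adjusted over all genes tested. CPM values are TMM-normalized. Groups with 0 counts were set against a floor of 3 counts over the group. The procedure was tested on simulated data. Replicates correlated with an r of 0.989 or more across genes, and no libraries agreed within counting noise. The lowest values, 0.989 and 0.99, were those of WT uninduced replicate 1 with replicates 2 and 3. All groups other than uninduced WT were at 0.996 or more. Total counts of 15576685 to 42005596 give detection floors of 0.0354 to 0.0603 CPM per group. Sequences and gene overlaps came from RefSeq and GENCODE M21, in which 51 of 54 listed genes had the positions of the table. Figures were drawn with matplotlib 3.10.9 in Python 3.11.15.

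The genes, lists and tests were chosen with earlier results of these data known, and 1 listed gene is not reported here. Named were the 10 genes, *Foxs1*, further pathway genes that were DEGs in a comparison (at most 6 per comparison, with a mean of at least 1 CPM) and, for members with a mean of at least 5 CPM, the 2 genes of highest correlation. Alternatives were DESeq2 1.42.0, its size factors, 2 other filters, only the groups compared, a replicate block, calls at the adjusted p alone, glmTreat at the fold threshold and leaving out each library.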

Additional observations from a re-analysis of the deposited data

Results flagged for a closer look

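The response to stimulation differed from that of WT in both clones (edgeR interaction, adjusted p below 0.05) for *Notch1* (0.43 in clone 1 and 0.40 in clone 2, on the log2 scale, clone minus WT), *Notch2* (-0.50 and -0.31), *Notch3* (0.96 and 0.72) and *Hes1*. The *Hes1* difference was -0.76 in clone 1 and 0.31 in clone 2, so that the clones stood on opposite sides of WT. For *Jag1* it was 0.54 in clone 2. All of these are below the fold threshold.

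The clones differed from each other, although both are labelled FOXS1 KO. In uninduced cells the difference, clone 1 minus clone 2, was 0.26 for *Notch1*, -0.17 for *Notch2*, 0.81 for *Notch3*, 1.21 for *Notch4*, 1.10 for *Jag1* and 1.25 for *Hes1*. In stimulated cells it was 0.29 for *Notch1*, -0.36 for *Notch2*, 1.06 for *Notch3*, 1.34 for *Notch4* and 0.41 for *Jag1*. Groups of 3 libraries were not searched for outlying libraries here.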

How the results depend on the processing

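With DESeq2 the count of DEGs among the members for the difference in response of clone 2 was 1 (*Heyl*), and with a filter of at least 1 CPM in 3 libraries that of clone 1 was 1 (*Notch4*), against 0 each. In fits of only the groups compared, uninduced clone 1 against WT gave 1 (*Hey1* missed the threshold), and stimulated clone 1 and clone 2 gave 3 and 1, since *Heyl* and, for clone 1, *Dll1* did not pass the filter. With no fold threshold the counts were 7 in each uninduced clone, 8 and 7 in stimulated clone 1 and clone 2, 4 and 5 for the differences in response, and 6 and 5 between the clones (uninduced and stimulated). Tested against the fold threshold they were 1 in uninduced clone 1, 1 in stimulated clone 2, 3 for the response of clone 1, and 1 and 0 between the clones. Leaving out 1 library gave 1 to 3 for uninduced clone 1, 1 to 2 for stimulated clone 2 and 0 to 1 for each difference in response. Log2 fold changes that turned sign on leaving out 1 library ranged from -2.50 to 0.0856 for *Dll1* in uninduced clone 1 against WT (a DEG at -2.04, adjusted p = 0.0273, without WT uninduced replicate 2 and in no other of these fits), -1.71 to 0.42 for *Dll1* in the difference of clone 2, -0.90 to 0.64 for *Dll1* and -1.65 to 2.82 for *Heyl* between uninduced clones, -2.78 to 1.82 for the *Heyl* response of clone 1, and -0.74 to 3.88 for its difference from WT. Beyond the filter and the call rules, the cause was not tested. *Notch1*, *Notch2*, *Notch3*, *Jag1* and *Hes1* kept their direction in every comparison under each of these alternatives.

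Samples that share a replicate number correlated at -0.238 to 0.161 (45 pairs, 6 over 0.1) in their deviations from the group means, and 5 of 18 libraries correlated best with their own number, so the numbers were not taken to pair the samples. With the replicate block the counts were 2, 3, 5 and 2 for the clones against WT (uninduced clone 1 and clone 2, then stimulated), and no call on a member changed. The counts of a few reads for *Jag2*, *Dll1*, *Heyl* and, in the clones, *Hey1* limit what depth can show for them.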
